A study of Danio rerio with 2 samples.

Results

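The genes described here are those of the lysosome and its acid pump in endothelial and blood cells of the zebrafish tail. They were chosen by symbol: every gene whose symbol starts with atp6v or lamp, the cathepsins (cts followed by a letter), and hexa, hexb, ifi30, glb1, gba, npc2, renbp and npl. The rule found 53 features with 50 symbols among 27421 features with 26764 symbols, since ctslb stands for several features that were summed. All embryos were of strain AB and carried TgBAC(isl1:TagRFP) and Tg(dab2:EGFP), so that regulatory sequence of isl1, a LIM homeodomain factor gene, drove TagRFP, while EGFP was driven by sequence of dab2, an endocytic adaptor gene expressed in venous endothelium. Tails taken at 48 h post fertilization were dissociated and sorted into TagRFP+/EGFP+ cells, labelled isl1-derived endothelial cells, and TagRFP-/EGFP+ cells, labelled other endothelial cells, and each fraction gave 1 single-cell library. The labels do not give the number of embryos behind a library.

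The lysosome is the acidic compartment in which cells break down what they take up by endocytosis. The V-ATPase pumps protons into it and is built from a cytosolic V1 sector, which splits ATP, and a membrane V0 sector, which carries the protons. Cathepsins cleave proteins at acid pH, glycosidases remove sugars from glycolipids and glycoproteins, and the LAMP proteins cover the inner face of the membrane. In zebrafish, stab2, a scavenger receptor gene for hyaluronan and other ligands, marks venous and lymphatic endothelial cells that clear material from the circulation. Of the 50 genes, renbp and npl encode enzymes of amino sugar and sialic acid turnover that act in the cytosol.

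After filtering, 2015 cells remained in the library labelled isl1-derived and 708 in the library labelled other, with median totals of 9757 and 6636 transcripts counted by unique molecular identifier (UMI) and 0 barcodes in common. Over all kept cells, TagRFP RNA was low in the first of these, at 2.69 counts per 1000000 UMIs (CPM), and high in the second, at 129 CPM. The same held for isl1 RNA, at 1.97 and 129 CPM. In stab2-high cells, defined below, the values were 2.31 and 17.2 CPM for TagRFP and 0 and 12.3 CPM for isl1. Cells with neural markers numbered 0 and 22, and their part in this difference was not tested. The direction is the reverse of the labels, and the names of the deposited matrices also read the other way round. Any direction between the libraries below is therefore that of the library labels as given. Within each library, endothelial cells were those with at least 10 UMIs of cdh5, tie1, egfl7 and clec14a together per 10000. The stab2-high cells had at least 10 stab2 UMIs per 10000, under 50 of aqp8a.1 and under 10 of esm1. They numbered 444 and 373 cells, library labelled isl1-derived first, here and throughout. The aqp8a.1-high arterial cells had at least 50 of aqp8a.1 and under 10 of stab2 and of esm1 (313 and 64). The esm1-high cells, esm1 being a marker of sprouting tip cells, had at least 10 of esm1 and under 10 of stab2, with no limit on aqp8a.1 (236 and 30). Blood progenitors were non-endothelial cells with at least 10 UMIs per 10000 summed over a list of 10 genes (423 and 40). The list was myb, runx1, gata2b, gfi1aa, ikzf1, coro1a, laptm5, ptprc, spi1b and cebpa. In this class the list summed to 1689 and 1567 CPM, and coro1a had the highest level, at 563 and 490 CPM. The levels were 247 and 245 CPM for myb, 57 and 66 CPM for runx1 and 68 and 38 CPM for gata2b.

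These classes are ranges of expression rather than types, and 70 and 28 endothelial cells lay within 20% of the stab2 limit. Venous genes that the limits did not use were higher in stab2-high cells, to unlike degrees. The mannose receptor gene mrc1a stood at 1453 and 1800 CPM in stab2-high cells and at 66.9 and 114 CPM in aqp8a.1-high cells. In esm1-high cells it stood at 31.45 and 87.7 CPM. The venous gene flt4 differed less. It stood at 508 and 588 CPM in stab2-high cells, 168 and 206 CPM in aqp8a.1-high cells and 381 and 468 CPM in esm1-high cells. The median stab2-high cell had 1.15 and 1.51 aqp8a.1 UMIs per 10000 and 0 of esm1, where the class limits kept both low. The median esm1-high cell carried 92.6 and 68 of aqp8a.1, so the esm1-high cells were also rich in the arterial marker. The 7 macrophage markers summed to between 0 and 1.98 CPM in all 8 sums of a class in a library, with 4 to 7 of the 7 genes at 0. The 3 muscle genes tnnt3a, myhz2 and actc1b summed to 100 and 185 CPM in stab2-high cells and to between 3.51 and 24.1 CPM elsewhere. The counts of called lysosomal genes below were the same without the endothelial cells that had at least 10 UMIs of these genes per 10000. This left 435 and 356 stab2-high cells, and cells with fewer muscle gene UMIs stayed in. Neutrophil markers summed to between 57.8 and 80.9 CPM in the classes of the library labelled isl1-derived and to between 1.21 and 4.87 CPM in those of the library labelled other, and their part in the results was not tested.

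Stab2-high cells put about 1 in 100 of their UMIs into the 50 genes, more than each of the other 3 classes in either library. The share of all UMIs was 1.08% and 0.964% in stab2-high cells, 0.22% and 0.243% in aqp8a.1-high cells, 0.256% and 0.313% in esm1-high cells, and 0.0949% and 0.13% in blood progenitors. As means over libraries these were 1.02 ± 0.0837%, 0.231 ± 0.0162%, 0.285 ± 0.0408% and 0.113 ± 0.0251% (SD, n = 2 libraries). The lower stab2-high library stood above every library of the other 3 classes. Exact binomial intervals, which cover counting error only, ran from 1.07 to 1.09% and from 0.953 to 0.976% in stab2-high cells. The 2 and 1 cells with macrophage markers, outside these classes, had 0.892% and 0.704%, with intervals of 0.789 to 1.004% and 0.352 to 1.256%. Without ctsla, the most abundant of the genes, the stab2-high shares were 0.707% and 0.625% against 0.158% and 0.176% in aqp8a.1-high cells.

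Per cell the picture differed for blood. A stab2-high cell carried on average 84.4 and 69.1 UMIs of the 50 genes, an aqp8a.1-high cell 17.7 and 17.3, an esm1-high cell 21.4 and 21.4, and a blood progenitor 24.9 and 26.9. Blood progenitors thus had the lowest share of UMIs but no fewer lysosomal UMIs per cell than the arterial cells, with a median total of 26345 and 21464 UMIs against 7983 and 6784 in aqp8a.1-high cells. Levels in CPM below are shares of UMIs, so a gene lower in blood need not have fewer UMIs per blood cell. Endothelial cells in no class had shares of 0.337% and 0.389%, and the 30 and 22 cells that passed the stab2 limit and also the aqp8a.1 or esm1 limit had 0.552% and 0.646%, between the stab2-high and the arterial cells.

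**Figure D1:**
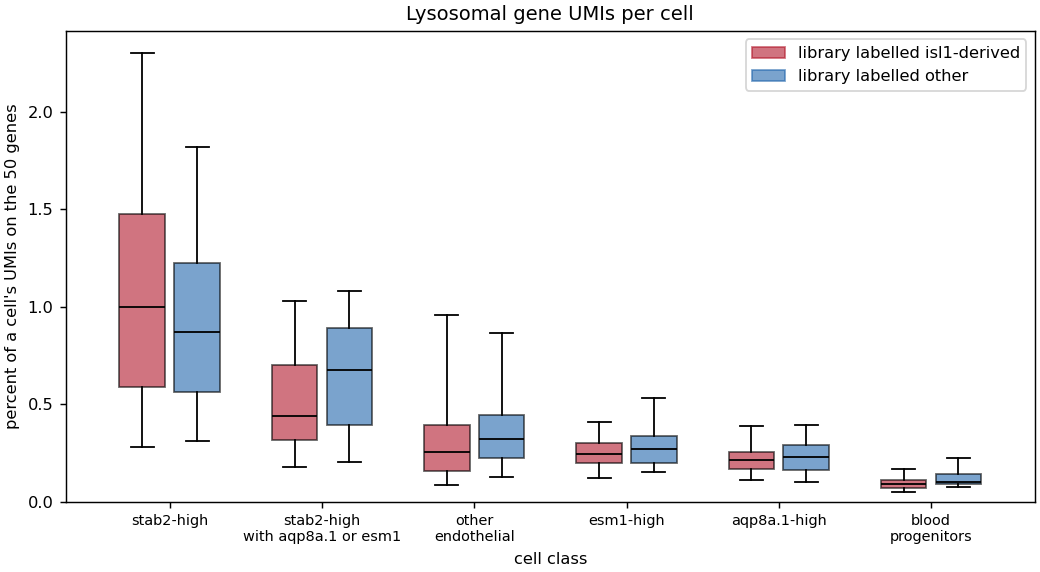
Percent of each cell's UMIs that fell on the 50 lysosomal genes, by cell class and library. Boxes give the quartiles with the median as a line, and whiskers the 5th and 95th percentiles over cells. Medians were 0.995% and 0.872% in stab2-high cells and 0.088% and 0.1% in blood progenitors.

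Cells of the stab2-high class were spread widely around this level. The middle 50% of cells ran from 0.587 to 1.47% in one library and from 0.562 to 1.22% in the other, with the library labelled isl1-derived first. In aqp8a.1-high cells the same range was 0.168 to 0.257% and 0.163 to 0.289%. The lower quartile of the stab2-high cells was above the upper quartile of the aqp8a.1-high cells in both libraries.

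Differences between classes were tested on UMIs summed per library and class, with edgeR's quasi-likelihood test, library as a term and Benjamini-Hochberg adjustment over 12369 genes, at an adjusted p of 0.05. Each class has n = 2 sums, 1 from each sort, so with library as a term the p-values rest on how far class differences disagreed between these libraries. That spread was mostly pooled over genes (267 prior against 3 residual degrees of freedom), so small p-values are not replication gene by gene. The 3 comparisons of stab2-high cells share the same stab2-high sums. Of the 50 genes, 41 had enough UMIs to be tested. The other 9 were ctsbb, ctsl.1, ctslb, ctsll, ctss1, atp6v1b2, atp6v1c2, atp6v0a1b and atp6v0a2a, which are described only by their levels. Of these, ctslb was at 0 UMIs in all 8 sums (a count of 0 allows at most 0.27 to 14.6 CPM, depending on the sum), and ctsl.1 had 18 UMIs in 1 sum, the larger one of blood progenitors, and 0 elsewhere. No sum held more than 1 UMI of ctsbb or ctsll, 2 of atp6v1c2, 7 of ctss1 or 6 of atp6v0a2a. Against aqp8a.1-high cells, 33 of the 41 were higher in stab2-high cells and 0 were lower (33 had an unadjusted p under 0.05, and DESeq2 called 29 higher and 0 lower), where 10.9% of all tested genes were called higher and 7.22% lower. Against esm1-high cells, 33 were higher and 0 lower (DESeq2: 30 and 0), beside 11.9% and 6.92% of all genes. Against blood progenitors, 36 were higher and 2 lower, beside 36.7% and 32.5%. The median log2 fold change over the 41 genes was 1.62, 1.79 and 2.42 in these comparisons, against 0.02, 0.05 and 0.15 over all tested genes. The same 33 genes were higher against both arterial classes, and 32 of them also against blood.

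**Figure D2:**
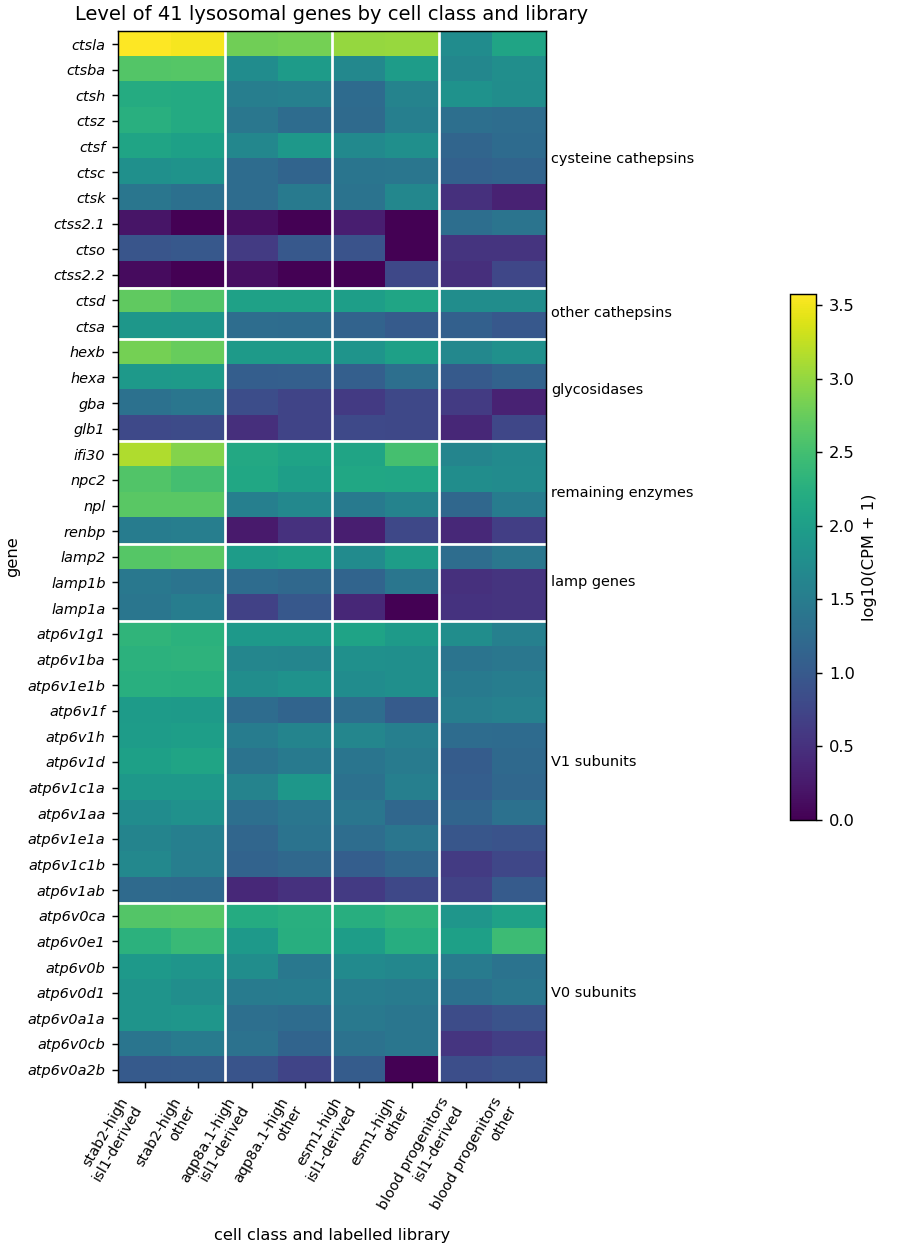
Level of the 41 tested genes, as log10(CPM + 1), in each class and library, with genes grouped by role and ordered by UMIs. The pair of stab2-high columns is the brightest for most rows, with ctsla at 3756 and 3392 CPM at the top, while ctss2.1 is dark in the endothelial columns and brighter in blood.

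Among the cysteine cathepsins, 6 of 10 tested genes were higher in stab2-high cells than in either arterial class and 0 lower, with a median log2 fold change of 1.37 against esm1-high cells over the 10. The gene with most UMIs was ctsla, which encodes cathepsin L, an endopeptidase. It stood at 3756 and 3392 CPM in stab2-high cells, 625 and 664 CPM in aqp8a.1-high cells, 1015 and 1057 CPM in esm1-high cells and 53 and 121 CPM in blood progenitors. The classes did not overlap, and by UMIs ctsla was the gene of rank 25 and 31 among all genes of the stab2-high sums (UMIs count 3′ ends and were not divided by gene length). The log2 fold change was 2.47 ± 0.16 (SE) against aqp8a.1-high cells, 1.89 ± 0.16 against esm1-high cells and 5.22 ± 0.19 against blood (adjusted p = 1.3e-36, 9.8e-25 and 7.4e-78). When every cell was thinned to 2000 UMIs, 95.4% and 97.7% of stab2-high cells had a ctsla UMI, against 67.8% and 69.4% of aqp8a.1-high cells and 11.2% and 15.4% of blood progenitors. Without thinning these shares were 99.1% and 98.1%, 94.6% and 95.3%, and 59.1% and 60%, at median depths of 6954.5 and 6253, 7983 and 6784, and 26345 and 21464 UMIs.

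Part of the ctsla signal in blood lay in few cells. The 3 cells with most ctsla UMIs held 22.1% of them among 423 blood progenitors and 58% among 40. The stab2 level in blood was 0.911% and 4.73% of that in stab2-high cells, and the ctsla level was 1.41% and 3.58%. The arterial marker aqp8a.1 stood at 72 and 69.2 CPM in blood, against 15540 and 16210 CPM in aqp8a.1-high cells. Its level in blood was 14.7% and 12.4% of that in stab2-high cells, which the aqp8a.1 limit kept low. The part of free RNA in the blood levels was not tested. The cathepsin B gene ctsba was at 10.8% and 13.8% of its stab2-high level in blood, above the stab2 share in both libraries.

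The gene ctsba, whose protein also acts as a carboxypeptidase, stood at 414 and 422 CPM in stab2-high cells and at 53 and 92 CPM in aqp8a.1-high cells. Its log2 fold change was 2.65 ± 0.20 (adjusted p = 7.7e-29), and 2.95 ± 0.22 against esm1-high cells, with 46.2 and 92.6 CPM. For ctsz, which encodes the carboxypeptidase cathepsin Z, the levels were 178 and 152 CPM in stab2-high cells, 25.1 and 17.5 CPM in aqp8a.1-high cells and 16.2 and 34.1 CPM in esm1-high cells, and the log2 fold changes were 2.85 ± 0.24 and 3.30 ± 0.28. The aminopeptidase cathepsin H gene ctsh stood at 157 and 153 CPM in stab2-high cells, 32.7 and 35 CPM in aqp8a.1-high cells and 64.8 and 55.8 CPM in blood. It had the smallest called rise against blood, 0.95 ± 0.19 (adjusted p = 2.2e-06). The dipeptidyl peptidase gene ctsc and ctsf rose by 1.94 ± 0.28 and 1.06 ± 0.22 against aqp8a.1-high cells. For ctsf the libraries gave ratios of 2.75 and 1.35.

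Several cysteine cathepsins did not follow. In stab2-high cells ctsk, which encodes the collagen-cleaving enzyme of mammalian osteoclasts, stood at 24 and 19.8 CPM, against 17.5 and 28.5 CPM in aqp8a.1-high cells and 21.8 and 43.9 CPM in esm1-high cells. The last value is 9 UMIs that all lay in 3 of 30 cells. The 3 endothelial classes overlapped, and the log2 fold changes of 0.10 ± 0.32 and -0.15 ± 0.34 missed the threshold (adjusted p = 0.91 and 0.85). In blood ctsk was at 2.16 and 1.21 CPM, and the difference of 2.91 ± 0.37 from stab2-high cells passed (adjusted p = 3.6e-13). The values for ctso were 7.8 and 8.6 CPM in stab2-high cells, 3.19 and 8.76 CPM in aqp8a.1-high cells and 7.1 and 0 CPM in esm1-high cells, and only its difference from blood passed (1.26 ± 0.49, adjusted p = 0.017), a call that was lost under DESeq2 and without cycling cells.

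Of the cathepsin S genes, ctss2.1 and ctss2.2 ran the other way against blood. Against both arterial classes neither was called (adjusted p = 0.656 to 0.995). The gene ctss1 had 12 UMIs over the 8 sums, too few to be tested. In mammals cathepsin S is the cathepsin of antigen-presenting cells. In blood progenitors ctss2.1 stood at 18.6 and 23.1 CPM (207 and 19 UMIs), while stab2-high cells held 2 and 0 UMIs in all, which is 0.578 CPM and at most 1.12 CPM by the limit that a count of 0 allows (3 UMIs per sum). The ratio of stab2-high cells to blood in the library labelled isl1-derived was 0.031, with a 95% interval of 0.00373 to 0.114. Expression was concentrated: 82 of 423 blood progenitors had a ctss2.1 UMI, and 3 of these cells held 49.8% of them. In the library labelled other, 5 of 40 had one and 3 held 89.5%. The near-identical gene name ctss2.2 had 23 and 4 UMIs in blood and 1 and 0 in stab2-high cells. These were the 2 genes called lower against blood (log2 fold change -6.09 ± 0.60 and -4.24 ± 1.22, adjusted p = 4.1e-20 and 0.0011), and reads may be split between such copies. The 2 cells of the library labelled isl1-derived with macrophage markers held 21 ctss2.1 UMIs.

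Both cathepsins of other classes, the aspartic protease gene ctsd and the serine carboxypeptidase gene ctsa, were higher in stab2-high cells against all 3 other classes. For ctsd the levels were 502 and 406 CPM in stab2-high cells, 111 and 110 CPM in aqp8a.1-high cells, 99.4 and 127 CPM in esm1-high cells and 55.9 and 55.8 CPM in blood. For ctsa they were 77.5 and 74.4 CPM, 17.9 and 17.5 CPM, 12.7 and 9.74 CPM, and 11.4 and 8.5 CPM. In neither gene did a stab2-high sum overlap with another class. The log2 fold changes against aqp8a.1-high cells were 2.05 ± 0.19 and 2.12 ± 0.27 (adjusted p = 3.9e-21 and 7e-12).

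Of the 4 glycosidases, 3 were higher against each of the other classes and 0 lower. The β-hexosaminidase subunit gene hexb stood at 662 and 556 CPM in stab2-high cells, 86.9 and 87.6 CPM in aqp8a.1-high cells, 69 and 107 CPM in esm1-high cells and 45.9 and 61.9 CPM in blood. Its partner subunit gene hexa stood at 82.7 and 87.5 CPM, 10.8 and 10.9 CPM, 11.2 and 19.5 CPM, and 9.18 and 12.1 CPM. Both subunits of the enzyme thus differed by like amounts between stab2-high and arterial cells. The log2 fold changes of hexb and hexa were 2.79 ± 0.19 and 2.92 ± 0.29 against aqp8a.1-high cells and 3.07 ± 0.21 and 2.83 ± 0.32 against esm1-high cells. Against blood they were 3.213 ± 0.191 and 2.677 ± 0.245, with library ratios of 14.4 and 8.97 for hexb and 9.01 and 7.21 for hexa. The glucocerebrosidase gene gba was lower in level, at 20.2 and 24.7 CPM in stab2-high cells against 5.98 and 4.38 CPM in aqp8a.1-high cells (1.93 ± 0.43, adjusted p = 1.2e-04). The β-galactosidase gene glb1 stood at 5.2 and 5.61 CPM in stab2-high cells and at 1.99 and 4.38 CPM in aqp8a.1-high cells and missed the threshold in every comparison (log2 fold changes of 0.99 ± 0.72, 0.00 ± 0.61 and 0.90 ± 0.58 against aqp8a.1-high, esm1-high and blood cells).

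The group named remaining enzymes holds the 4 genes left over from the other roles: ifi30, npl, renbp and npc2. The products of renbp and npl act in the cytosol, and that of npc2 binds cholesterol. All 4 were higher against each class, and the group median was the highest against both arterial classes, 3.29 and 3.33 on the log2 scale. These genes were named singly with earlier results of these data known, so this rank describes the choice of genes and was not tested. The gene with the largest fold change against both arterial classes was renbp, which encodes an epimerase of N-acetylglucosamine, with 105 and 87 UMIs in stab2-high cells (30.4 and 32.5 CPM) against 2 and 1 UMIs in aqp8a.1-high cells. The ratios within each library were 38.1 and 14.9, with 95% intervals of 10.3 to 319 and 2.6 to 593, and the fitted log2 fold change was 4.78 ± 0.57 (adjusted p = 1.3e-13). Sialic acid is cleaved by the aldolase that npl encodes. For npl the levels were 454 and 451 CPM in stab2-high cells, 34.3 and 46 CPM in aqp8a.1-high cells, 27.9 and 39 CPM in esm1-high cells and 14.7 and 30.4 CPM in blood. Neither arterial class nor blood reached 50 CPM in any library, and the log2 fold changes were 3.54 ± 0.22, 3.94 ± 0.24 and 4.23 ± 0.21 (adjusted p = 4.9e-40, 1e-39 and 6.4e-53). The gene npc2, whose product binds cholesterol in the lysosome, differed less, with 402 and 317 CPM against 133 and 98.6 CPM in aqp8a.1-high cells (1.62 ± 0.19).

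The gene ifi30 encodes a thiol reductase that opens disulfide bonds of ingested proteins. It stood at 1391 and 822 CPM in stab2-high cells, 144 and 118 CPM in aqp8a.1-high cells, 120 and 331 CPM in esm1-high cells and 41.1 and 49.8 CPM in blood. The log2 fold changes were 3.03 ± 0.19, 2.72 ± 0.21 and 4.29 ± 0.21 (adjusted p = 5.7e-37, 7.7e-29 and 6.1e-56). The higher esm1-high value rested on few cells: among the 30 esm1-high cells of the library labelled other, 3 held 61.8% of the 68 ifi30 UMIs, and without them the level was 151 CPM. Among stab2-high cells ifi30 was uneven. The upper quartile of the library labelled isl1-derived was 18.9 UMIs per 10000, the median 7.05 and the lower quartile 2.27. In the library labelled other the median was 4.59 and the lower quartile 1.29. For ctsla the same quartiles were 17.1 and 50.1 around 32.0, and 16.6 and 43.1 around 29.7.

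Of the 3 lamp genes, lamp2 and lamp1a were higher in stab2-high cells against every class, while lamp1b was called against blood alone. LAMP2 takes part in the fusion of lysosomes with other vesicles. Its gene lamp2 stood at 427 and 453 CPM in stab2-high cells, 94.4 and 107 CPM in aqp8a.1-high cells, 52.2 and 97.5 CPM in esm1-high cells and 18.2 and 25.5 CPM in blood, with log2 fold changes of 2.11 ± 0.19, 2.88 ± 0.22 and 4.02 ± 0.21 (adjusted p = 3.7e-22, 6.2e-29 and 6.1e-51). The gene lamp1a had 84 and 84 UMIs in stab2-high cells (24.3 and 31.4 CPM), 10 and 4 in aqp8a.1-high cells and 3 and 0 in esm1-high cells. Its ratio of stab2-high to esm1-high cells in the library labelled isl1-derived was 15.95 (95% interval 5.28 to 78.9), and the fitted log2 fold change was 4.21 ± 0.62 (adjusted p = 1.3e-09). By contrast lamp1b stood at 26.3 and 22.4 CPM in stab2-high cells, 17.1 and 15.3 CPM in aqp8a.1-high cells and 13.2 and 24.4 CPM in esm1-high cells, and its differences of 0.55 ± 0.33 and 0.84 ± 0.37 missed the threshold (adjusted p = 0.29 and 0.11). The a copy made up 48% and 58.3% of the UMIs of the pair in stab2-high cells, and 18.9% and 36.4% in aqp8a.1-high cells (exact 95% intervals 40.4 to 55.7%, 49.8 to 66.5%, 9.44 to 32.0% and 10.9 to 69.2%). The copies were chosen for comparison after their values were seen, and this difference between copies was not tested.

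For the V-ATPase, all 11 tested V1 subunits were higher in stab2-high cells against each of the other 3 classes, with medians of 1.60, 1.79 and 2.03 on the log2 scale. Under DESeq2 the call was lost for atp6v1c1a and atp6v1e1a against aqp8a.1-high cells, for atp6v1ab and atp6v1e1a against esm1-high cells and for atp6v1ab against blood, and at 2000 UMIs per cell for atp6v1c1a against aqp8a.1-high cells and for atp6v1h and atp6v1e1a against esm1-high cells. Of the 7 tested V0 subunits, 5 were higher in each comparison and 0 lower, but not the same 5 throughout. Of all tested genes, 10.9%, 11.9% and 36.7% were called higher in these comparisons. The gene atp6v0e1 was called against both arterial classes and not blood, and atp6v0cb against blood alone. Against both arterial classes the call was lost for atp6v0b under DESeq2 and without the library term, and for atp6v0d1 at 2000 UMIs per cell. Against esm1-high cells atp6v0b also lost its call at 2000 UMIs per cell. The V0 medians were 0.95, 0.96 and 1.25, the lowest of the 7 role groups in each comparison. As a share of all UMIs, the V1 genes made up 0.112% and 0.11% in stab2-high cells and 0.034% and 0.0414% in aqp8a.1-high cells.

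Among V1 subunits with most UMIs, atp6v1g1, a gene of the stalk that links the sectors, stood at 214 and 191 CPM in stab2-high cells against 83.7 and 81 CPM in aqp8a.1-high cells (1.35 ± 0.20). The nucleotide-binding subunit gene atp6v1ba stood at 197 and 204 CPM in stab2-high cells, 42.6 and 41.6 CPM in aqp8a.1-high cells, 60.4 and 58.5 CPM in esm1-high cells and 22.9 and 25.5 CPM in blood. The libraries agreed closely in every class, and the log2 fold changes were 2.23 ± 0.22, 1.82 ± 0.22 and 2.69 ± 0.20 (adjusted p = 1.8e-19, 4e-13 and 1.4e-29). The stalk gene atp6v1e1b stood at 181 and 173 CPM against 55 and 65.7 CPM in aqp8a.1-high cells (1.60 ± 0.21). The largest V1 difference against aqp8a.1-high cells was that of atp6v1ab, a copy of the catalytic A subunit, with 56 and 42 UMIs in stab2-high cells (16.2 and 15.7 CPM) against 4 and 1. Its fitted log2 fold change was 3.103 ± 0.588 (adjusted p = 4.4e-06), with ratios of 10.16 and 7.17 (95% intervals 3.75 to 38.6 and 1.22 to 290). The more abundant A copy, atp6v1aa, stood at 54.3 and 62.4 CPM against 19.1 and 24.1 CPM (1.46 ± 0.27).

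The rotor stalk gene atp6v1d stood at 108 and 122 CPM in stab2-high cells, 21.9 and 28.5 CPM in aqp8a.1-high cells, 23.3 and 29.2 CPM in esm1-high cells and 9.81 and 15.8 CPM in blood, with log2 fold changes of 2.21 ± 0.25, 2.23 ± 0.27 and 2.92 ± 0.24. Another gene of the rotor, atp6v1f, stood at 89.9 and 87.1 CPM in stab2-high cells, 17.5 and 13.1 CPM in aqp8a.1-high cells and 32.8 and 36.4 CPM in blood. Both blood values of atp6v1f lay above the arterial ones, a difference that was not tested, and its rise over aqp8a.1-high cells was 2.43 ± 0.27 and over blood 1.03 ± 0.21. The regulatory subunit gene atp6v1h and the second E copy atp6v1e1a rose over aqp8a.1-high cells by 1.54 ± 0.24 and 1.24 ± 0.30.

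The smallest V1 difference against aqp8a.1-high cells was that of atp6v1c1a, a gene of the subunit that joins the sectors. It stood at 79.5 and 79.6 CPM in stab2-high cells, 38.2 and 76.7 CPM in aqp8a.1-high cells and 20.8 and 34.1 CPM in esm1-high cells. The rise over aqp8a.1-high cells (0.66 ± 0.23, adjusted p = 0.028) rested on the library labelled isl1-derived, where the ratio was 2.08 (95% interval 1.64 to 2.65), against 1.04 (0.724 to 1.53) in the library labelled other. Its paralogue atp6v1c1b stood at 46 and 32.9 CPM in stab2-high cells, 12.8 and 15.3 CPM in aqp8a.1-high cells and 3.24 and 4.86 CPM in blood, with a rise over blood of 3.17 ± 0.32 (adjusted p = 3.1e-19).

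In the V0 sector, the gene with most UMIs was atp6v0ca, which encodes the proteolipid of the rotating ring. It stood at 420 and 422 CPM in stab2-high cells, 159 and 180 CPM in aqp8a.1-high cells, 176 and 210 CPM in esm1-high cells and 73.4 and 112 CPM in blood, with log2 fold changes of 1.32 ± 0.18, 1.25 ± 0.19 and 1.91 ± 0.18. The gene of the large membrane subunit, atp6v0a1a, stood at 70.8 and 74.8 CPM in stab2-high cells and at 5.67 and 7.28 CPM in blood, a difference of 3.19 ± 0.27 (adjusted p = 1.1e-25). The gene atp6v0d1, whose product couples the ring to V1, stood at 69.1 and 57.2 CPM in stab2-high cells and at 29.9 and 30.7 CPM in aqp8a.1-high cells (1.09 ± 0.25). The ring gene atp6v0b rose least among called V0 genes, from 55.8 and 26.3 CPM in aqp8a.1-high cells to 83.5 and 72.9 CPM in stab2-high cells (0.81 ± 0.23, adjusted p = 0.0043). The small membrane gene atp6v0e1 stood at 198 and 264 CPM in stab2-high cells and at 105 and 278 CPM in blood, where the classes overlapped and the difference of 0.11 ± 0.17 missed the threshold (adjusted p = 0.58). The gene atp6v0a2b missed it in every comparison, at 9.25 and 9.72 CPM in stab2-high cells, as did atp6v0cb against both arterial classes.

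**Figure D3:**
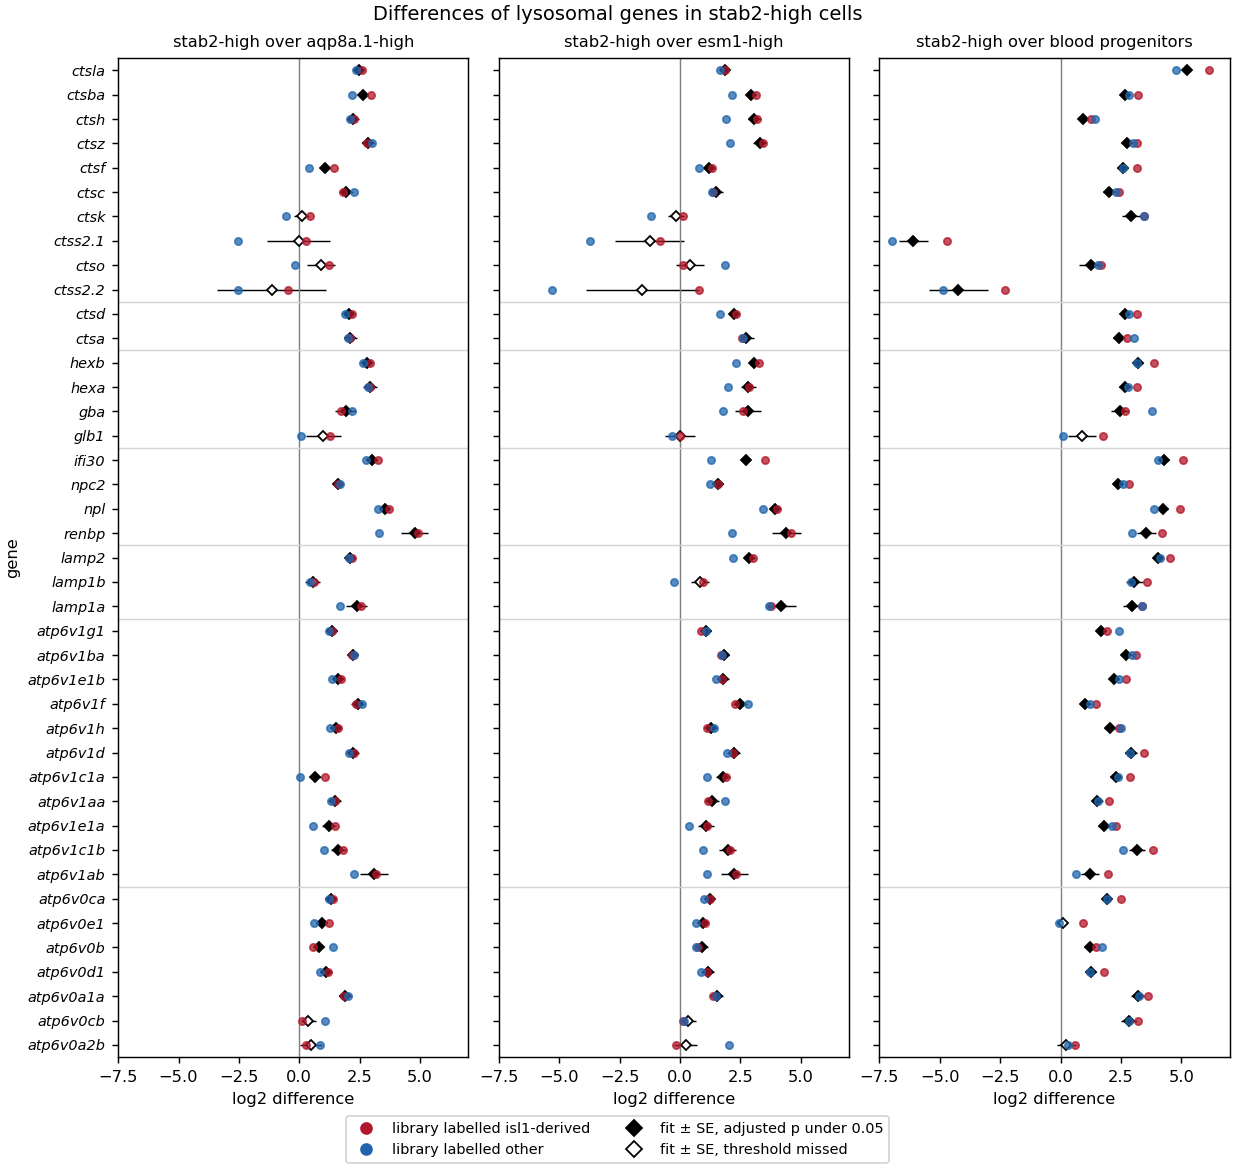
Log2 difference between stab2-high cells and each other class for the 41 tested genes, grouped by role. Circles give each library from its own sums (0.5 added to each count) and diamonds the edgeR fit with its SE, filled at an adjusted p under 0.05. In the first 2 panels 33 diamonds are filled and lie to the right of 0, and in the third ctss2.1 and ctss2.2 lie far to the left.

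Some pairs of V-ATPase gene copies differed in which copy led. In the 4 classes the B copy atp6v1ba made up 90.5 to 100% of the UMIs of its pair with atp6v1b2, atp6v0a1a 75 to 100% of its pair with atp6v0a1b, and atp6v0ca 88.1 to 96.8% of its pair with atp6v0cb. The library labelled other also held 22 cells with neural markers (elavl3 and cholinergic genes), and there the other copy led: atp6v1b2 stood at 357 CPM against 144 CPM for atp6v1ba, atp6v0a1b at 115 CPM (20 UMIs) against 5.76 CPM (1 UMI) for atp6v0a1a, and atp6v0cb at 1480 CPM against 472 CPM for atp6v0ca. In the pair of A copies the same copy led as in the 4 classes, with atp6v1aa at 156 CPM and atp6v1ab at 80.6 CPM, and atp6v1c1a likewise led atp6v1c1b with 64.3% of the UMIs. In those 22 cells the 50 genes took 0.621% of UMIs, of which the V1 genes were 0.295%, while ifi30, hexb, npl and ctsba were at 28.8, 34.6, 5.76 and 34.6 CPM. The neural cells come from 1 library and are few, so these values are a description with no test.

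**Figure D4:**
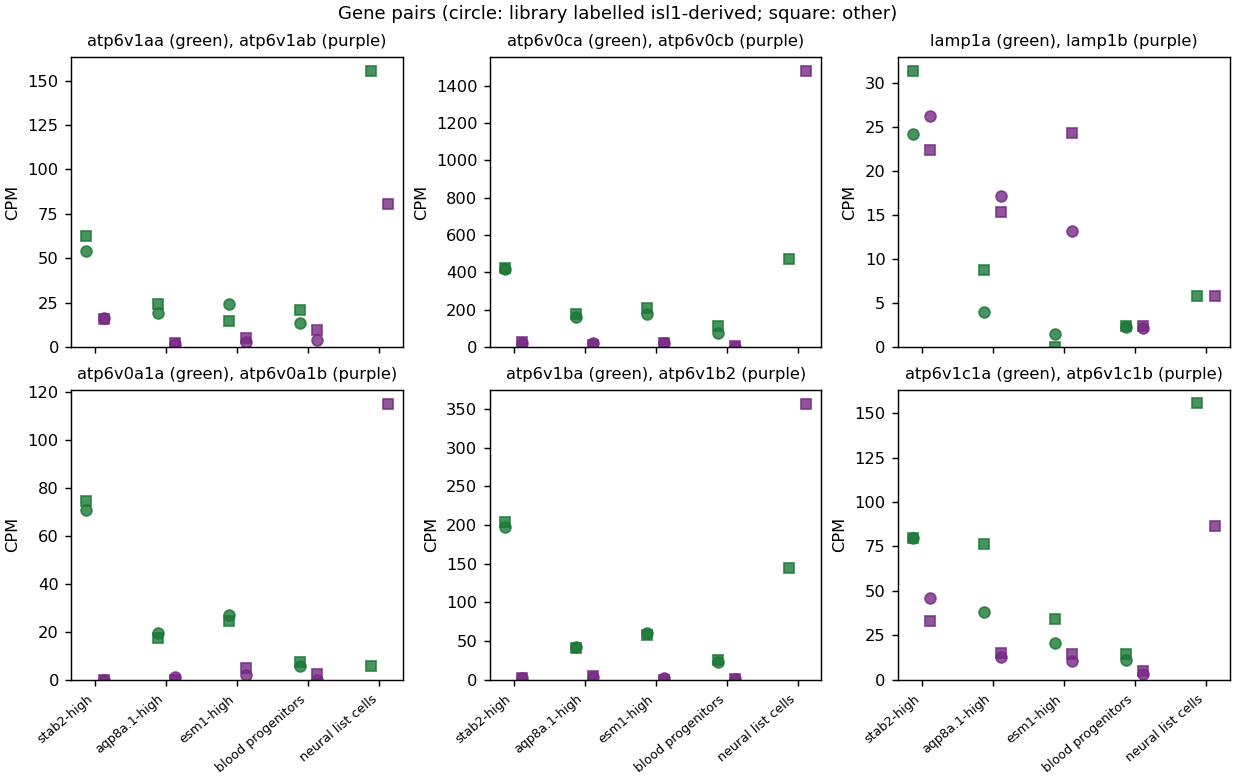
CPM of 6 pairs of gene copies in the 4 classes and in the 22 neural-marker cells, with 1 panel per pair. Circles are the library labelled isl1-derived, squares the library labelled other, and green and purple the first and second copy named above each panel. In the neural-marker cells atp6v0cb, atp6v0a1b and atp6v1b2 lie above their partners, and lamp1a exceeds 10 CPM in stab2-high cells alone among the 5 columns.

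Between the 2 arterial classes few of the genes were called, at shares near those of all tested genes. Of the 41, 2 were higher in aqp8a.1-high cells, where 3.92% of all genes were, and 1 was lower, where 2.3% were, with a median log2 fold change of -0.03 against 0.03 over all genes. The gene ctsla was lower in aqp8a.1-high than in esm1-high cells (625 and 664 against 1015 and 1057 CPM, log2 fold change -0.59 ± 0.16, adjusted p = 0.0063), with ratios of 0.616 and 0.628. The genes atp6v1c1a (1.13 ± 0.31, adjusted p = 0.0083) and lamp2 (0.77 ± 0.24, adjusted p = 0.025) were higher, with library ratios of 1.84 and 2.25 and of 1.81 and 1.101. None of the 3 was called by DESeq2, without the library term or at 2000 UMIs per cell, where 2 of 41, 5 of 41 and 3 of 34 tested genes had an unadjusted p under 0.05.

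Endothelial cells were also binned by their stab2 level. Over these bins the arterial marker aqp8a.1 went from 11040 and 11010 CPM in the lowest to 387 and 332 CPM in the highest, so the bins hold the arterial cells at one end and largely restate the comparison of classes. Cells with 0 stab2 UMIs (464 and 58 cells) gave 0.221% and 0.244% of their UMIs to the 50 genes, and cells with above 0 and up to 5 per 10000 gave 0.284% and 0.276%. The share was 0.662% and 0.602% at 5 to 20, 1.14% and 0.993% at 20 to 60, and 1.4% and 1.13% above 60 (79 and 83 cells). It was higher in each bin than in the one before in both libraries. The groups did not move alike. From the lowest to the highest bin the share of the remaining enzymes went from 0.0279 to 0.294% and from 0.0286 to 0.192% in the respective libraries, while the V0 share went from 0.0375 to 0.12% and from 0.0422 to 0.113%. Between the last 2 bins npl went from 504 to 491 CPM in one library and from 475 to 557 CPM in the other, while ctsba went from 429 and 420 to 667 and 590 CPM.

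**Figure D5:**
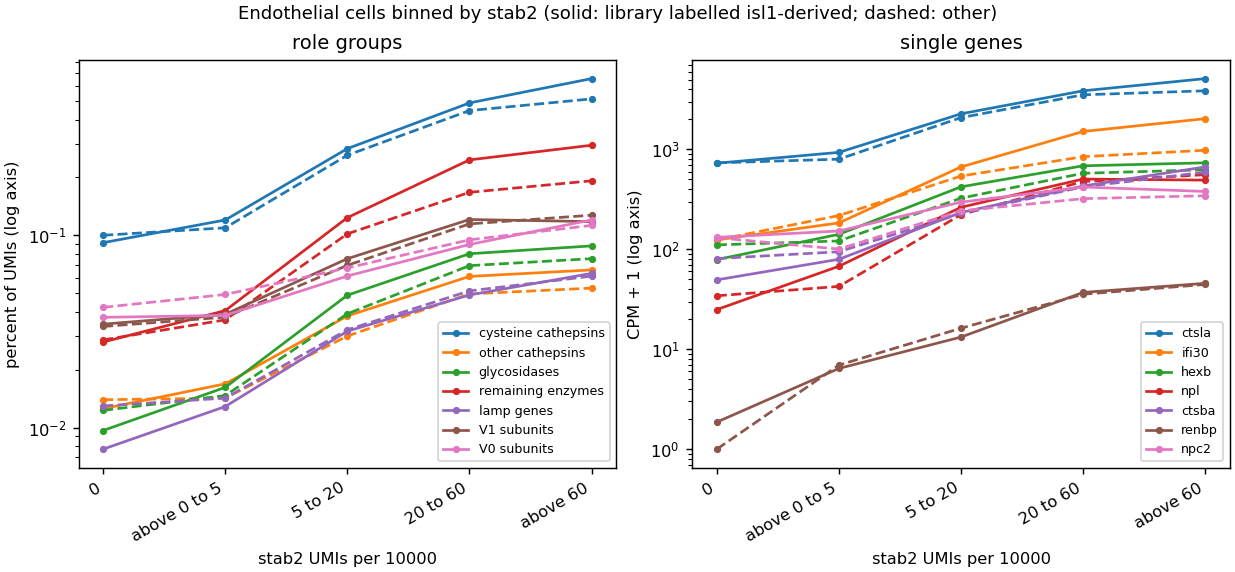
Endothelial cells binned by stab2 UMIs per 10000. The left panel gives the percent of UMIs in each role group and the right panel CPM + 1 of single genes, both on log axes, with solid lines for the library labelled isl1-derived and dashed lines for the library labelled other. All groups lie higher in the highest bin than in the lowest, with renbp going from 0.865 and 0 to 44.7 and 43.5 CPM.

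Other genes of the compartment were counted from lists. Of 38 tested genes of a list of other lysosomal hydrolases and membrane proteins, 24 were higher and 1 lower in stab2-high than in aqp8a.1-high cells, with a median of 1.40, against esm1-high cells 22 and 1, and against blood 32 and 2, and the others missed the threshold. Over all tested genes, 10.9%, 11.9% and 36.7% were called higher in these comparisons and 7.22%, 6.92% and 32.5% lower. The asparaginyl endopeptidase gene lgmn, whose product processes cathepsins, stood at 1272 and 1092 CPM in stab2-high cells against 88 and 127 CPM in aqp8a.1-high cells (3.53 ± 0.19, adjusted p = 2.2e-46), and the fucosidase genes fuca1.1 and fuca2 rose by 2.50 ± 0.23 and 2.70 ± 0.26. The gene lower in stab2-high cells was scarb2a, which encodes a lysosomal membrane receptor, at 376 and 381 CPM against 698 and 812 CPM in aqp8a.1-high cells (-0.99 ± 0.16, adjusted p = 7.9e-08). Of 22 tested genes for TFE factors, enzyme sorting and V-ATPase accessory proteins, 16 were higher and 0 lower against aqp8a.1-high cells, 16 and 1 against esm1-high cells, and 17 and 3 against blood. The gene tfec, of the factor family that drives lysosomal genes in mammals, stood at 103 and 121 CPM in stab2-high cells and at 2.79 and 0 CPM in aqp8a.1-high cells. Its relative tfe3a stood at 160 and 163 CPM against 27.1 and 35 CPM (2.42 ± 0.23). Between the 2 arterial classes 0 genes of either list were called, where 3.92% of all tested genes were called higher and 2.3% lower in aqp8a.1-high cells.

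Within a class the 2 libraries gave like levels for stab2-high cells. With 1 library per sort there is no test, and genes were described by a ratio of 1.5, with library labels as given and in conflict with TagRFP and isl1 RNA. In stab2-high cells 1 of 35 genes with at least 100 UMIs passed it, where 4.69% of all genes did. This was ifi30, at 1391 CPM and 822 CPM, a ratio of 1.69 (95% interval 1.61 to 1.78, counting error only). The next were atp6v1c1b at 1.40 (1.07 to 1.83) and atp6v0e1 at 0.751 (0.675 to 0.836), and the median log2 ratio of the 35 was 0.04. In aqp8a.1-high cells 1 gene was higher and 4 lower of 16, where 15.9% of all genes passed in either direction, in esm1-high cells 0 and 5 of 14, where 19.3% did, and in blood 1 and 6 of 27, where 17.9% did. The blood split depended on the scaling: with TMM it was 3 higher and 3 lower, and the median log2 ratio of the 27 genes was 0.01 in place of -0.34. The gene atp6v0e1 was on the lower side in all 3, with ratios of 0.488, 0.576 and 0.379. The library labelled other held 64, 30 and 40 cells in those classes.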

How the data were processed

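Libraries were 10x Chromium 3' v3.1 libraries read on an Illumina NovaSeq6000, per the labels' protocols. The deposited values are whole-number UMI counts per gene and barcode without normalization, made by the authors with Cell Ranger on GRCz11 (version 5.0.0 in the submitters' processing notes, 5.0.1 in the headers of the matrices). The libraries held 2072 and 730 barcodes with 26865577 and 5698957 UMIs. The members and lists were chosen with earlier results of these data known. Of the 53 member feature IDs, 51 were in the name table at hand.

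Barcodes had to have 500 or more genes and less than 10% of UMIs from mitochondrial genes (42 and 21 removed), and Scrublet calls (scanpy 1.11.5) were removed (15 and 1, which leaves undetected doublets possible). Classes were cut by the marker limits given above. Blood progenitors also had under 10 macrophage, 20 neutrophil and 500 haemoglobin UMIs per 10000. Counts were summed per library and class, scaled by TMM, filtered with filterByExpr and fitted in edgeR 4.0.16 (R 4.3.3) with class and library as terms over all 8 sums. This fit estimates log2 fold changes with 3 residual degrees of freedom, and its spread was pooled over genes with 267 prior degrees of freedom. On simulated counts with 200 genes changed 4-fold (stab2-high against aqp8a.1-high, 12369 genes), 93% of raised and 71% of lowered genes were called, and 0.0493% of the others. These counts were drawn with the same spread for every gene and no difference between libraries. The rates therefore check the calculation and need not hold for the data. Ratios between libraries were tested on simulated counts of 6288 genes in stab2-high cells, with 200 genes changed 4-fold and counting error alone. Here 100% of raised and 100% of lowered genes passed 1.5, with 0.739% of the others. A 4-fold change lies far past 1.5, so this checks the calculation and not the spread between libraries. Percent intervals are exact binomial, ratio intervals exact conditional binomial, at 95%, for counting error only. Genes were named where they had the 8 largest called changes of a direction in a comparison or the 3 highest UMI counts of a role; others were named after their values were seen.

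Alternatives were other class limits and barcode filters, doublets or mixed cells, DESeq2 1.42.0 or its size factors, no filter on low counts, no library term, 2000 UMIs per cell, cycling cells left out, and, chosen after seeing the data, muscle-gene cells left out and no TMM.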

Additional observations from a re-analysis of the deposited data

Results flagged for a closer look

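The gene ifi30 moved in opposite directions between aqp8a.1-high and esm1-high cells in the 2 libraries. The ratio of aqp8a.1-high to esm1-high cells was 1.20 (95% interval 1.01 to 1.42) in one, labelled isl1-derived, and 0.357 (0.245 to 0.518) in the one labelled other. The difference between the libraries was not tested, because each sort has 1 library. In the library labelled other, 3 of 30 esm1-high cells held 61.8% of the ifi30 UMIs of the class. Without those 3 cells the class stood at 151 CPM, against 118 CPM in aqp8a.1-high cells.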

How the results depend on the processing

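Classes were compared within libraries, since library was a term of every fit except the one named, so each comparison is paired by library. The count of called genes stayed within 1.5 times its value in all alternatives for stab2-high cells against aqp8a.1-high cells (29 to 33, from 33), against esm1-high cells (26 to 33, from 33) and against blood (33 to 40, from 38), and no called gene changed direction. At 2000 UMIs per cell 34 of the genes were tested and 29, 26 and 33 called, and DESeq2 called 29, 30 and 36 of 41. The number of genes lower in stab2-high cells than in blood went from 2 to 1 with other class limits and without cycling cells. It went to 0 at 2000 UMIs per cell and to 3 without a filter on low counts. Where it fell, the genes concerned had too few UMIs to be tested. Against aqp8a.1-high cells atp6v1c1a lost its call under 6 alternatives, and atp6v0b under DESeq2 and without the library term. Between aqp8a.1-high and esm1-high cells the count went from 3 to 0 at 2000 UMIs per cell, under DESeq2 and without the library term (3, 2 and 5 genes had an unadjusted p under 0.05), and to 1 without a filter on low counts and without TMM. Leaving out muscle-gene cells left all 4 counts as they were. The cause of these changes was not tested.

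The median log2 difference over the 41 genes, taken within libraries, was 1.67 to 1.72 against aqp8a.1-high cells, 1.48 to 1.70 against esm1-high cells and 2.60 to 2.85 against blood with either library left out, and -0.22 to -0.06 between the arterial classes. Against blood the scaling moved the median of all genes, 0.15 with TMM, 0.02 with DESeq2 size factors and 0.54 with library size alone, while the lysosomal median was 2.42, 2.29 and 2.82. Library size alone also raised the share of called genes that were higher in stab2-high cells from 53.0% to 63.5% against blood, and lowered that of genes higher in aqp8a.1-high than in esm1-high cells from 63.0% to 52.6%. Of 12369 genes, DESeq2 called 1086, 1198 and 292 against aqp8a.1-high cells, against esm1-high cells and between the arterial classes, where edgeR called 2236, 2324 and 770. The number of lysosomal genes past a ratio of 1.5 between libraries was also taken with a minimum of 30 UMIs, 300 UMIs and at 2000 UMIs per cell. In aqp8a.1-high cells it was 8 of 32, 0 of 5 and 0 of 3 measured (from 5 of 16). All genes there gave 2063 of 7715, 112 of 1319 and 157 of 994. In esm1-high cells it was 11 of 29, 1 of 3 and 0 of 1 (from 5 of 14). All genes there gave 2257 of 6730, 91 of 1005 and 107 of 717. In blood it was 11 of 34 and 4 of 13 at 30 and 300 UMIs (from 7 of 27), beside 3169 of 10608 and 324 of 3670 of all genes. At 2000 UMIs per cell no lysosomal gene was left to measure in blood. The shallower classes of the library labelled other, with 30 to 64 cells, limit these ratios.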
